A study of Mus musculus with 8 samples.

Results

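The tibialis anterior is a shin muscle of the mouse made almost wholly of fast fibres, and 9 genes were followed in it: the sarcomeric myosin heavy chains Myh1, Myh2, Myh3, Myh4, Myh7, Myh7b and Myh8, the long noncoding RNA 2310065F04Rik, also called linc-Myh, and the homeodomain transcription factor Six4. They were taken by gene symbol and are 9 of the 24341 genes listed for each library. They were chosen with levels in knockout and control animals already known, so their differences between these groups are given as a description, with no test. RNA came from 8 male mice of 12 weeks on a chow diet, per the labels. The 4 knockout animals carried floxed Carm1 with a Cre transgene (HSAcre Tg/0), and the 4 control animals carried floxed Carm1 without Cre (HSAcre 0/0). The skeletal actin (HSA) promoter drives Cre in muscle fibres and not in the other cells of the muscle. Both genotypes share the floxed allele, and no group carries Cre with intact Carm1, so an effect of Cre and an effect of losing Carm1 cannot be told apart. Carm1 encodes a protein arginine methyltransferase.

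Myosin heavy chains are the motor proteins of the thick filament, and the isoform a fibre makes largely sets how fast it contracts. Adult mouse limb fibres use Myh4 (type IIb, the fastest), Myh1 (type IIx), Myh2 (type IIa) or Myh7 (type I, slow), while Myh3 (embryonic) and Myh8 (perinatal) are made in developing and regenerating muscle. The fast and developmental genes stand side by side on chromosome 11. In mouse, linc-Myh is transcribed from the same locus in fast fibres and has been linked to keeping the fast-type program, and factors of the sine oculis homeobox family, to which Six4 belongs, are known to act on fast-type genes through an element called MEF3.

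Each value is an FPKM, that is fragments per kilobase of transcript relative to the mapped fragments of the library, as deposited. The Cufflinks status LOWDATA sets a gene to 0, and it was given to between 5 and 10 genes in 6 libraries and to no gene in knockout 2 and knockout 4; a value with another status than OK was treated as missing, not as absence. Xist, the RNA of the inactive X chromosome of females, was found in control 1 (19.6 FPKM), knockout 2 (22.9) and knockout 4 (20.5), with 0.0662 FPKM or less elsewhere, although all animals are described as male. Ddx3y, a Y-linked gene, was at 0.0444, 0 and 0.00571 FPKM in those 3 libraries and between 8.08 and 13.6 FPKM in the other 5. These values go against the label male for 3 libraries, and whether those animals were female or samples were exchanged was not tested. Values are therefore also given within the libraries with Xist (1 control, 2 knockouts) and without it (3 controls, 2 knockouts). Carm1 lay between 24.7 and 36.0 FPKM in controls and between 13.5 and 18.4 FPKM in knockouts. Read counts are not known, and summed FPKM lay between 604428 and 681042. Of the muscle fibre markers, Mylpf and Ttn had values in all libraries. Mylpf, a fast light chain, lay between 23418 and 32281 FPKM in controls and between 15629 and 20417 FPKM in knockouts, and Ttn, titin, between 102 and 120 FPKM in controls and between 107 and 134 FPKM in knockouts. Every other marker list for cell types of muscle had detected genes in both groups, with overlapping sums, and no marker was at 0 in all libraries. Knockout 1 had the highest sum of the tendon markers Tnmd, Scx and Fmod, at 58.2 FPKM against 11.2 to 32.3 elsewhere. In bulk RNA, fewer cells of a type and less RNA per cell cannot be told apart.

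The promoters are shown first because the cluster genes share a stretch of sequence there. Printed are the 250 bases before the RefSeq start of each gene on its own strand (GRCm38.p6). Of the 5 myosins of this locus among the 9 genes, 4 hold the same 14-base word, TTCTAATTATATCC, given in capitals. It starts 125 bases before the start in Myh2, 160 in Myh1, 158 in Myh4 and 54 in Myh8.
Myh2, chr11:67170777-67171026: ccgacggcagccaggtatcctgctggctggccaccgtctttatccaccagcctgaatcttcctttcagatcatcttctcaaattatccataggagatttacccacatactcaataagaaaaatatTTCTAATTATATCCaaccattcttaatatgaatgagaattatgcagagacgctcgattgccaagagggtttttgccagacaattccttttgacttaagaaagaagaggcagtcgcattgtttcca
Myh1, chr11:67199852-67200101: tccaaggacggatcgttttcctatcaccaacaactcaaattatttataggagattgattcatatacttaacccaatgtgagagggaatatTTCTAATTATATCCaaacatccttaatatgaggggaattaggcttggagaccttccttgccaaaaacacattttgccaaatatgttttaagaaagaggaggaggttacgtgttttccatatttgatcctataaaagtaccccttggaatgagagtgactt
Myh4, chr11:67237562-67237811: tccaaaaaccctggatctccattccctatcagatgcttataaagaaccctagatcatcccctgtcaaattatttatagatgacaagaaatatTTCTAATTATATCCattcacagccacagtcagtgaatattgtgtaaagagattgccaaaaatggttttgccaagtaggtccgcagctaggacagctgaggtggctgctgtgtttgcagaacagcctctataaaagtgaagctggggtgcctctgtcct
Myh8, chr11:67276874-67277123: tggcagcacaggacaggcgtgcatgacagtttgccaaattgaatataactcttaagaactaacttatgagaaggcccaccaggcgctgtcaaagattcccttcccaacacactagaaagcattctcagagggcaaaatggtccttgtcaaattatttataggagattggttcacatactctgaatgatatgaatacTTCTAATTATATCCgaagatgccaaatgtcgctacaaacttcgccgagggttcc

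These 4 promoters were picked first, without that of Myh3, and the word was sought as letters identical in all of them. It was then searched on both strands of the 32851 RefSeq promoter windows of the same length. It was found in 4 of them, 0.0122%, which are these promoters. Its presence in them follows from how it was found, so the share is a description only. Myh3, the embryonic gene of the cluster, and 2310065F04Rik, which lies between Myh3 and Myh2 and is transcribed from the minus strand, do not hold these letters in this window.
Myh3, chr11:67078050-67078299: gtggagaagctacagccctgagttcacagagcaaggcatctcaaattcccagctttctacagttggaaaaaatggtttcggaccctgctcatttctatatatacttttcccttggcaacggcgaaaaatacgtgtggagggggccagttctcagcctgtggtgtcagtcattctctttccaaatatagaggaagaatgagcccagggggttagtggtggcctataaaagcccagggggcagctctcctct
2310065F04Rik, chr11:67120081-67120330: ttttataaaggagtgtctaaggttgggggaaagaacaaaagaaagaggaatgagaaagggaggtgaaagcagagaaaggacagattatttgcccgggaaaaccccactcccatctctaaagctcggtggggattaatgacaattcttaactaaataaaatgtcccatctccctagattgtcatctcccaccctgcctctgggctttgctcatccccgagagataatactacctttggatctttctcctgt

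The MEF3 word TCAGGTTTC was searched in the same windows on both strands. It was in 127 of them, 0.387%. Of the promoters of the 9 genes, only that of Six4 holds it, on the opposite strand from 99 to 91 bases before the start, where it reads GAAACCTGA and is shown in capitals. A match to letters is a description and not a site of binding.
Six4, chr12:73113246-73113495: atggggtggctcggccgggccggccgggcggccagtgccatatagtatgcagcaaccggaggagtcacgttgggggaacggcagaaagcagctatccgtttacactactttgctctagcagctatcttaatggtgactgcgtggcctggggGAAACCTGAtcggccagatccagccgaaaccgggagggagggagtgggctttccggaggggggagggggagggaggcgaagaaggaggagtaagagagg

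The slow genes also carry microRNAs inside their introns. miR-499-5p lies inside Myh7b and miR-208b-3p inside Myh7, and both are known in mouse to favour slow-type gene expression. Their seeds, bases 2 to 8, are in capitals. The genes of their precursors, Mir499 and Mir208b, were listed at 0 in all libraries. Mir6923, a microRNA gene inside the listed span of Myh3, was also at 0 in all of them. Whether these libraries can hold such short RNAs was not tested, so a 0 is not read as absence of the microRNAs.
miR-499-5p: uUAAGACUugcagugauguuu
miR-208b-3p: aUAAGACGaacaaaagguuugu

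The coding sequences of the adult fast myosins are close enough that reads can be assigned to the wrong gene. Over windows of 50 bases, the share of the coding sequence found identically in another sarcomeric myosin was 27.9% for Myh1, 28.1% for Myh2, 19.5% for Myh4 and 22.7% for Myh8. It was 4.99% for Myh3 and 0.0% for Myh7b. Myh7 shared 23.8%, all with the cardiac gene Myh6. The longest run identical in Myh1, Myh2, Myh4 and Myh8 is 109 bases long and is given here because a read inside it fits all of them.
Myh1/Myh2/Myh4/Myh8: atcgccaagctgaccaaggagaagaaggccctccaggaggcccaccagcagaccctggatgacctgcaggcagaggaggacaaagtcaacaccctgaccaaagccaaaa

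Myh4, the type IIb myosin, had a value in 2 libraries, knockout 2 at 2937 FPKM and knockout 4 at 3056 FPKM, where it ranked 24 and 25 among the listed genes. It was listed at 0 with LOWDATA in all 4 controls, in knockout 1 and in knockout 3. Acta1 and Ckm, skeletal actin and muscle creatine kinase, had the same status in some of those libraries. No difference between the groups can be formed for Myh4.

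Myh1, the type IIx myosin, was missing in control 1 and stood at 1802, 2218 and 1840 FPKM in control 2, control 3 and control 4. In knockout 1 to knockout 4 it stood at 1531, 1785, 2266 and 1499 FPKM. The groups overlapped. After scaling between libraries its mean was 2037 ± 365 (SD, n = 3) in controls and 1731 ± 426 (n = 4) in knockouts. The log2 difference, knockout minus control, was -0.25 with an SE of 0.23 over 7 libraries. The knockout mean was 0.945 of the control mean among libraries without Xist, and control 1, the control with Xist, has no value.

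Myh2, the type IIa myosin, was at 764 FPKM in control 1 and at 167, 139 and 145 FPKM in the other controls. The knockouts stood at 122, 1540, 140 and 1535 FPKM. Its 3 highest libraries were the 3 with Xist, 1 control and 2 knockouts. The range within each genotype was wider than the difference between the group means. Of its coding windows 28.1% recur in other myosins, and Myh4 had a value only in knockout 2 and knockout 4. How shared reads were assigned was not tested. The scaled mean was 312 ± 313 in controls and 786 ± 755 in knockouts (SD, n = 4 each), and the log2 difference was 0.90 with an SE of 1.15. Without knockout 2 and knockout 4 the log2 difference was -0.82, and it was 0.16 with presence of Xist in the model. The knockout mean was 0.850 of the control mean among libraries without Xist and 1.84 times it among those with Xist.

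The ratio of Myh2 to Myh1, both per length, can be formed in 7 libraries, since control 1 lacks a Myh1 value. It was 0.0925, 0.0625 and 0.0791 in control 2 to control 4, and 0.0795 and 0.0620 in knockout 1 and knockout 3. It was 0.863 in knockout 2 and 1.02 in knockout 4. The 2 libraries in which type IIa message nearly equalled type IIx message were those in which Myh4 had a value, at 1.65 and 2.04 times Myh1.

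**Figure D1:**
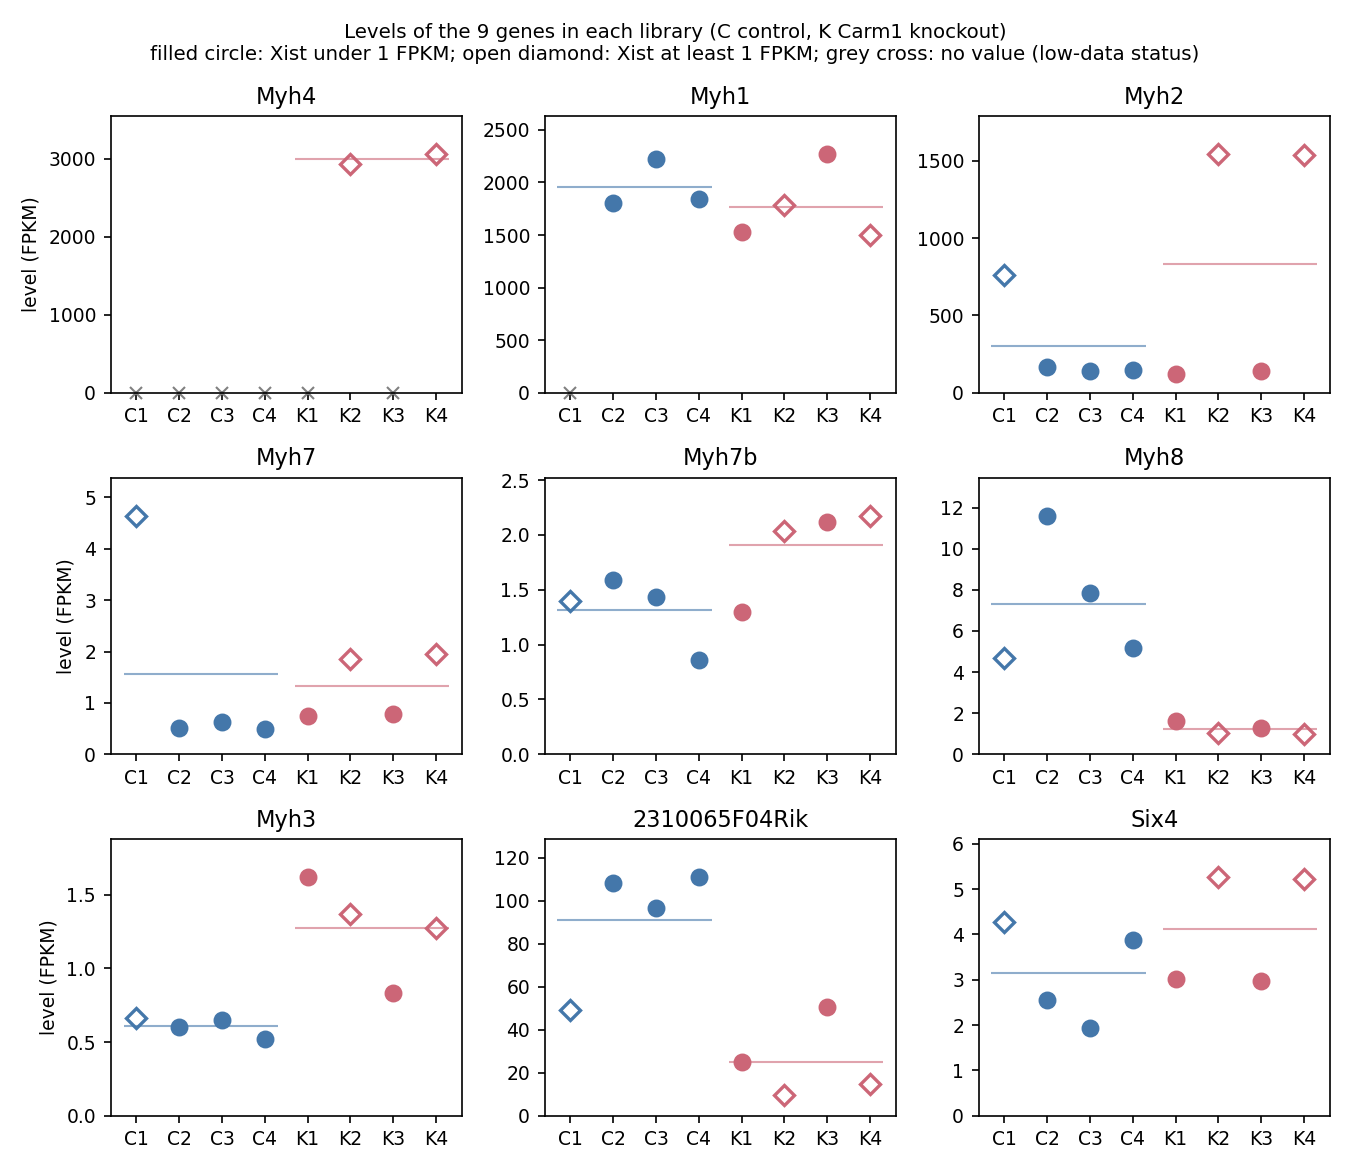
FPKM of the 9 genes in control 1 to control 4 (C1 to C4) and knockout 1 to knockout 4 (K1 to K4) as deposited, on linear axes, with open diamonds for libraries with Xist and filled circles for those without. Horizontal lines are group means of the values present, and a grey cross marks a library with no value. Myh8 is the gene whose knockout libraries all lie below its controls, from 0.975 to 1.61 against 4.71 to 11.6 FPKM, and Myh2 is high in the 3 libraries with Xist.

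Myh7, the slow type I myosin, was low in this fast muscle. Control 1 stood at 4.64 FPKM and the other controls at 0.518, 0.623 and 0.483 FPKM. The knockouts stood at 0.753, 1.85, 0.780 and 1.95 FPKM. Control 1 was above every knockout and the other controls were below every knockout, so the groups overlapped. Scaled means were 1.61 ± 2.10 in controls and 1.28 ± 0.583 in knockouts (SD, n = 4 each), and the log2 difference was 0.04 with an SE of 0.51. The libraries with Xist were again the highest 3. Among the 5 without it the groups did not overlap and the knockout mean was 1.37 times the control mean, while among the 3 with it the ratio was 0.374. Myh7 reached 1 FPKM in 3 libraries and so was not among the genes tested.

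Myh7b, a slow-tonic myosin gene whose transcript carries miR-499, was at 1.40, 1.59, 1.43 and 0.858 FPKM in controls and at 1.30, 2.03, 2.12 and 2.17 FPKM in knockouts. Knockout 1 lay within the controls and the other 3 knockouts lay above them. After scaling the mean was 1.37 ± 0.373 in controls and 1.85 ± 0.405 in knockouts, with a log2 difference of 0.27 and an SE of 0.16. The ratio of the means was 1.28 among libraries without Xist and 1.38 among those with it. Its highest library had 2.53 times the FPKM of its lowest, against 12.6 times for Myh2.

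Myh8, the perinatal myosin, did not overlap between the groups, all knockouts lying below all controls. It stood at 4.71, 11.6, 7.83 and 5.19 FPKM in control 1 to control 4 and at 1.61, 1.04, 1.30 and 0.975 FPKM in knockout 1 to knockout 4. Scaled means were 7.64 ± 3.43 in controls and 1.20 ± 0.314 in knockouts (SD, n = 4 each), a ratio of 0.157, and the log2 difference was -1.90 with an SE of 0.30, and -1.78 with presence of Xist in the model. The knockout mean was 0.170 of the control mean among the 5 libraries without Xist and 0.196 among the 3 with it. Because 22.7% of its coding windows recur in other myosins, of which Myh2 is the closest at 12.5%, its value depends on how shared reads were assigned, which was not tested.

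Myh3, the embryonic myosin, differed in the opposite direction. It stood at 0.661, 0.604, 0.652 and 0.521 FPKM in controls and at 1.62, 1.37, 0.835 and 1.27 FPKM in knockouts, without overlap. After scaling the mean was 0.633 ± 0.0935 in controls and 1.23 ± 0.296 in knockouts, with a ratio of 1.95 and a log2 difference of 0.44 with an SE of 0.11. The ratio was 1.98 among libraries without Xist and 1.83 among those with it. As 4 libraries at 1 FPKM were required, Myh3 was below the filter and not tested.

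The ratio of perinatal to embryonic myosin, Myh8 over Myh3 per length, was 7.12, 19.2, 12.0 and 9.95 in controls. It was 0.995, 0.761, 1.55 and 0.766 in knockouts. Every control therefore had several times more Myh8 than Myh3 message, and the knockouts had about as much of the one as of the other. Knockout 1, where Myh3 was highest, also had the highest values of Chrng, Chrna1, Runx1 and Ncam1, genes known to rise in denervated muscle, at 2.97, 40.2, 1.05 and 4.35 FPKM. In knockout 2 and knockout 4, Chrng was at 0.260 and 0.177 and Chrna1 at 7.45 and 7.07 FPKM. Runx1 there was at 0.487 and 0.363 and Ncam1 at 1.59 and 1.69 FPKM. In controls these genes reached at most 0.334, 5.08, 0.374 and 1.62 FPKM. Their part in the Myh3 result was not tested.

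2310065F04Rik, linc-Myh, stood at 49.0, 108, 96.7 and 111 FPKM in control 1 to control 4. It stood at 25.0, 9.79, 50.7 and 14.5 FPKM in knockout 1 to knockout 4. Knockout 3 was just above control 1, and otherwise every knockout lay below every control. Scaled means were 94.3 ± 29.5 in controls and 25.0 ± 19.5 in knockouts, a ratio of 0.265. Its log2 difference was -2.10 with an SE of 0.59. Libraries with Xist were the lower ones in each genotype: in controls the value with Xist was 0.460 of the mean without it, and in knockouts 0.296. Among the 5 libraries without Xist the groups did not overlap, at 96.7 to 111 FPKM in 3 controls and 25.0 and 50.7 FPKM in 2 knockouts, and the knockout mean was 0.353 of the control mean. Among the 3 with Xist it was 0.227.

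Set against its neighbour in the locus, linc-Myh per Myh2 message was 0.0642 in control 1 and between 0.650 and 0.762 in the other controls. It was 0.205 and 0.361 in knockout 1 and knockout 3, and 0.00636 and 0.00948 in knockout 2 and knockout 4. This ratio falls wherever Myh2 is high, so it cannot show how linc-Myh itself went. By their own levels, the libraries highest in type IIa myosin within each genotype were also the lowest in linc-Myh. These were control 1, at 49.0 FPKM of linc-Myh, and knockout 2 and knockout 4, at 9.79 and 14.5 FPKM.

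Six4, the transcription factor, stood at 4.27, 2.55, 1.93 and 3.87 FPKM in controls and at 3.01, 5.26, 2.98 and 5.24 FPKM in knockouts, with overlap. The scaled mean was 3.23 ± 1.02 in controls and 3.97 ± 1.10 in knockouts, with a log2 difference of 0.24 and an SE of 0.24. The 3 libraries with Xist, at 4.27 to 5.26 FPKM, lay above all 5 without it, at 1.93 to 3.87 FPKM. Within libraries without Xist the knockout mean was 1.06 times the control mean, and within those with it 1.12 times.

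**Figure D2:**
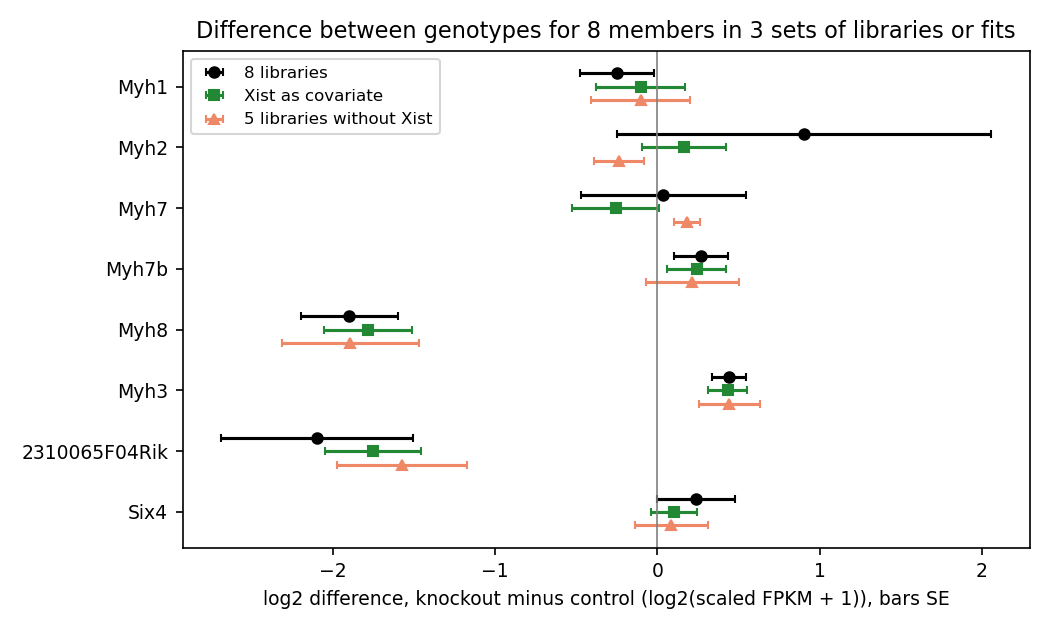
Log2 difference, knockout minus control, of log2(scaled FPKM + 1) for the 8 genes with values in both groups, with bars of 1 SE, for all libraries, with presence of Xist in the model, and for the 5 libraries without Xist. Myh8 lies between -1.90 and -1.78, 2310065F04Rik lies between -2.10 and -1.57, and Myh2 moves from 0.90 to -0.24.

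Of the 9 genes, 5 passed the filter for testing: Myh2, Myh7b, Myh8, 2310065F04Rik and Six4. Of these, 1 had groups that did not overlap, Myh8, while 8.31% of the 11096 genes tested did so. In the 5 libraries without Xist, where 3 controls meet 2 knockouts, 2 of the 5 did not overlap, Myh8 and 2310065F04Rik, against 31.8% of all genes tested. Since the genes were chosen on this contrast, nothing is read from these shares.

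In controls the scaled means fell in the order Myh1, Myh2, 2310065F04Rik, Myh8, Six4, Myh7, Myh7b and Myh3. Myh1 lay above every control value of Myh2, Myh8 above every control value of Six4, and 2310065F04Rik above every control value of Myh8. Myh2 overlapped none of these either, while Myh7 overlapped Six4, Myh7b and Myh3. In knockouts, Myh8, Myh7, Myh3 and Myh7b lay between 0.753 and 2.17 FPKM in every library and overlapped in their ranges.

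The locus from Myh3 to Myh13, an extraocular myosin, spans 293 kb of chromosome 11, from 67078300 to 67371502 (mm10). In gene order the listed spans are Myh3 from 67078300 to 67102291, 2310065F04Rik from 67112461 to 67120080, Myh2 from 67171027 to 67197517, Myh1 from 67200114 to 67224575, Myh4 from 67237812 to 67260447 and Myh8 from 67277124 to 67308633. The differences along the locus did not share 1 sign: Myh3 0.44, 2310065F04Rik -2.10, Myh2 0.90, Myh1 -0.25 and Myh8 -1.90. The 1 added before the log2 shrinks the differences of low genes such as Myh8 and Myh3. With 0.1 added instead, Myh8 stood at -2.50, 2310065F04Rik at -2.16 and Myh3 at 0.84. The sizes are therefore not ranked along the locus.

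**Figure D3:**
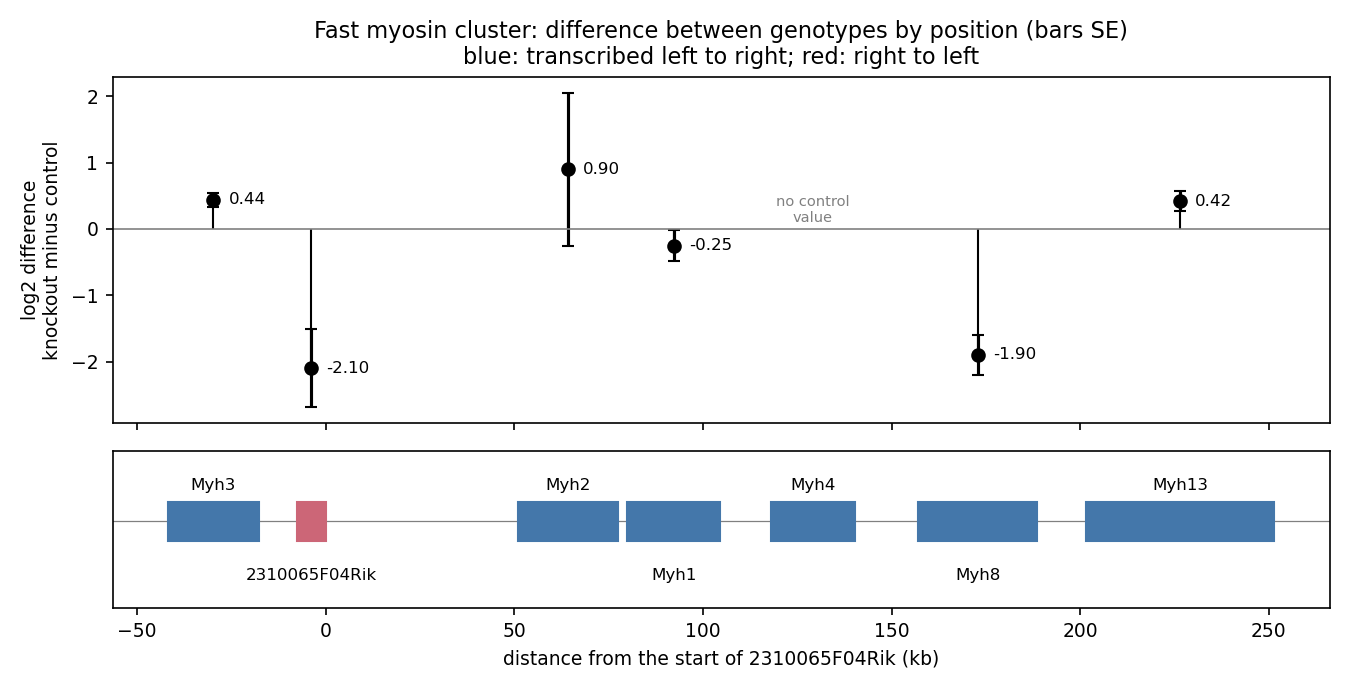
Log2 difference, knockout minus control, above a map of the fast myosin locus, against distance from the start of 2310065F04Rik in kb, with bars of 1 SE. Boxes are the gene spans, blue for genes transcribed left to right and red for right to left. Myh8 at -1.90 and 2310065F04Rik at -2.10 are the lowest, Myh2 at 0.90 has the widest bar, and Myh4 has no control value. The order of the lowest depends on the 1 added before the log2. With 0.1 added instead, Myh8 stood at -2.50 and 2310065F04Rik at -2.16.

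Within 500 kb of the cluster 13 other genes are listed, of which 5 passed the filter. Dhrs7c, whose enzyme sits in the sarcoplasmic reticulum, fell, from 337, 354, 334 and 314 FPKM in controls to 86.0, 143, 162 and 164 FPKM in knockouts. Its groups did not overlap, and its log2 difference was -1.40 with an SE of 0.20 (limma, Benjamini-Hochberg adjusted p = 0.0434). Over all genes tested, 0.360% passed that threshold. Over the alternatives its log2 difference ran from -1.53 to -1.19 and its adjusted p from 0.0223 to 0.163, with the highest in the 5 libraries without Xist; it did not pass when any 1 control, knockout 2 or knockout 4 was left out, at 0.0691 to 0.142. Adprm, Sco1, Tmem220 and Myh13 did not pass, with log2 differences of 0.21, 0.06, 0.18 and 0.42. Dhrs7c lies 427 kb from the cluster, while Adprm, Sco1 and Tmem220 lie 25.7, 10.9 and 43.0 kb from it. Gas7 was below the filter, at 1.13 ± 0.386 scaled FPKM in controls and 0.942 ± 0.187 in knockouts.

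None of the pathway lists below had a gene past the limma threshold in all 8 libraries; their counts at an unadjusted p under 0.05 are given beside them, where 1454 of all genes tested stood. Of the 9 tested fast contractile genes, all lay below 0, with a median log2 difference of -0.42 and 2 at an unadjusted p under 0.05, and 3 others, Tnnt3, Atp2a1 and Tpm1, had statuses other than OK. Over all 11096 genes the median was -0.0021, with 5492 above 0. The smallest adjusted p in the list was 0.203, for Mylpf, the fast regulatory light chain, at 27007 ± 5842 against 17792 ± 2550 scaled FPKM. In the 5 libraries without Xist the median of the fast list was -0.09. There Actn3 (0.19), Mybpc2 (0.25) and Casq1 (0.0044) lay above 0 and the other tested fast genes below. Of 14 slow contractile genes 12 lay above 0 and 4 had an unadjusted p under 0.05, with a median of 0.47 and of 0.06 in the 5 libraries without Xist. In those 5, Myl2, Myl3, Actn2, Myoz2, Csrp3, Ankrd2 and Pln lay below 0 and the other slow genes above. Tnnt1, slow troponin T, was at 11.7 ± 4.30 in controls and 29.5 ± 18.1 in knockouts, and Atp2a2, the slow calcium pump, at 11.1 ± 2.45 and 16.4 ± 2.28.

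Among factors that could govern these genes, 0 of 7 relatives and cofactors of Six4 passed, 1 had an unadjusted p under 0.05, and the median was 0.09. Six5 was at 1.51 ± 0.181 in controls and 1.96 ± 0.259 in knockouts, and Eya2, a cofactor that pairs with them, at 1.34 ± 0.509 and 0.954 ± 0.233. None of 24 fibre type regulators passed, with 13 above 0, 5 at an unadjusted p under 0.05 and a median of 0.04. Nfatc2, a calcineurin-dependent factor, was nearest, at 3.34 ± 0.858 in controls and 1.59 ± 0.260 in knockouts, with a log2 difference of -0.73 (limma, Benjamini-Hochberg adjusted p = 0.0826). Hdac4 was at 3.46 ± 0.582 and 5.20 ± 1.02.

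None of 6 other myosin heavy chains passed, with 3 at an unadjusted p under 0.05 and a median of 0.40. Myh6, the cardiac gene that shares windows with Myh7, stood at 1.11 ± 0.341 in controls and 1.94 ± 0.272 in knockouts, and Myh14, a nonmuscle myosin, at 7.71 ± 1.28 and 10.3 ± 0.570. Myosin folding and binding genes had 0 of 12 called, 2 at an unadjusted p under 0.05 and a median of -0.06. Mybph, myosin binding protein H, was at 85.3 ± 73.9 in controls and 14.3 ± 6.16 in knockouts, and Hsp90aa1, a chaperone of myosin folding, at 9.34 ± 1.19 and 11.9 ± 1.68. In the list of developmental and denervation genes 0 of 9 passed, with 7 above 0, 3 at an unadjusted p under 0.05 and a median of 0.35, or 0.53 in the 5 libraries without Xist. H19, an imprinted noncoding RNA of growing muscle, was at 361 ± 320 and 1498 ± 621, with a log2 difference of 2.26 (limma, Benjamini-Hochberg adjusted p = 0.125) and an adjusted p of 0.0353 in the limma fit with presence of Xist, and between 0.0353 and 0.348 over the alternatives. Myl4, the embryonic light chain, was at 15.1 ± 4.34 and 21.8 ± 0.777.

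**Figure D4:**
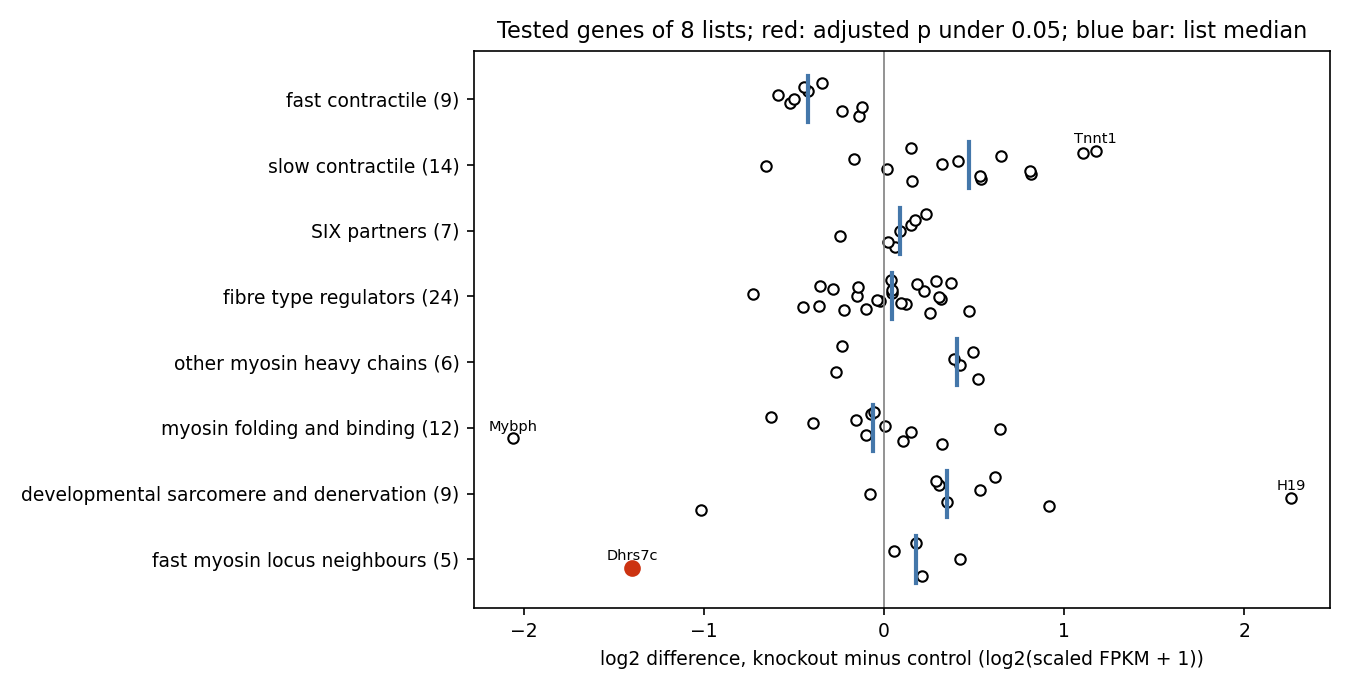
Log2 difference, knockout minus control, of each tested gene in the lists, with the median of each list as a blue bar, the number tested in brackets and Dhrs7c, the gene past the threshold, in red. The genes named in the text that lie farther than 1 from 0 are labelled, and the row of partners holds the relatives and cofactors of Six4. The fast contractile genes all lie below 0 and have a median of -0.42, and the slow contractile genes have a median of 0.47. These medians were -0.09 and 0.06 in the 5 libraries without Xist, where genes of both lists lay on both sides of 0.

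For 4 members the 5 genes whose profiles over the 8 libraries were nearest were found by the root mean square difference of log2(scaled FPKM + 1) after each profile was centred, among 10481 genes. Nearest to Myh2 was Myoz2 at 0.493, a Z-disc protein of slow and oxidative fibres, followed by Csrp3, Pdpr, Myl2 and Fhl1, up to 0.764. Myh2 itself varied with a root mean square of 1.48 around its mean, and the median gene differed from it by 1.50. The libraries with Xist held 172, 366 and 324 FPKM of Myoz2, and those without it 44.4 to 84.6 FPKM. Myl2, the slow regulatory light chain, was at 148, 106 and 107 FPKM in those 3 libraries and between 8.89 and 44.7 in the others.

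Nearest to Myh7 were Btg2, Padi2, Dusp1, Adamts8 and Selenbp1, from 0.184 to 0.267, where the median gene differed by 0.645. Myh7 reached 1 FPKM in 3 libraries, so the 1 added before the log2 flattens its profile. Its highest library had 9.61 times the FPKM of its lowest, while Btg2 lay between 9.47 and 30.4 FPKM. Nearness with a smaller added number was not tested. Nearest to Myh8 were Gdap1, Pde7a, Dhrs7c, Asb10 and Cdh4, from 0.462 to 0.545, where the median gene differed by 1.03. Dhrs7c, 427 kb from the cluster, is thus also among the nearest profiles of Myh8. Genes that are lower in knockouts tend to lie near this profile, so nothing about position is read from it. Asb10, a substrate adaptor of ubiquitin ligases, was at 51.4, 68.0, 60.1 and 62.3 FPKM in controls and 27.5, 29.7, 34.2 and 33.8 FPKM in knockouts. Nearest to 2310065F04Rik were Actr3b, Gdap1, Fam131a, Smox and Hddc3, from 0.459 to 0.641, where the median gene differed by 1.28. Smox, spermine oxidase, was at 24.8 FPKM in control 1 and 62.9 to 140 in the other controls, and at 15.8 and 14.8 FPKM in knockout 2 and knockout 4 against 39.9 and 41.7 in knockout 1 and knockout 3. Gdap1 was among the nearest genes of both Myh8 and 2310065F04Rik. These likenesses are descriptions over 8 libraries that share the same groups.

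**Figure D5:**
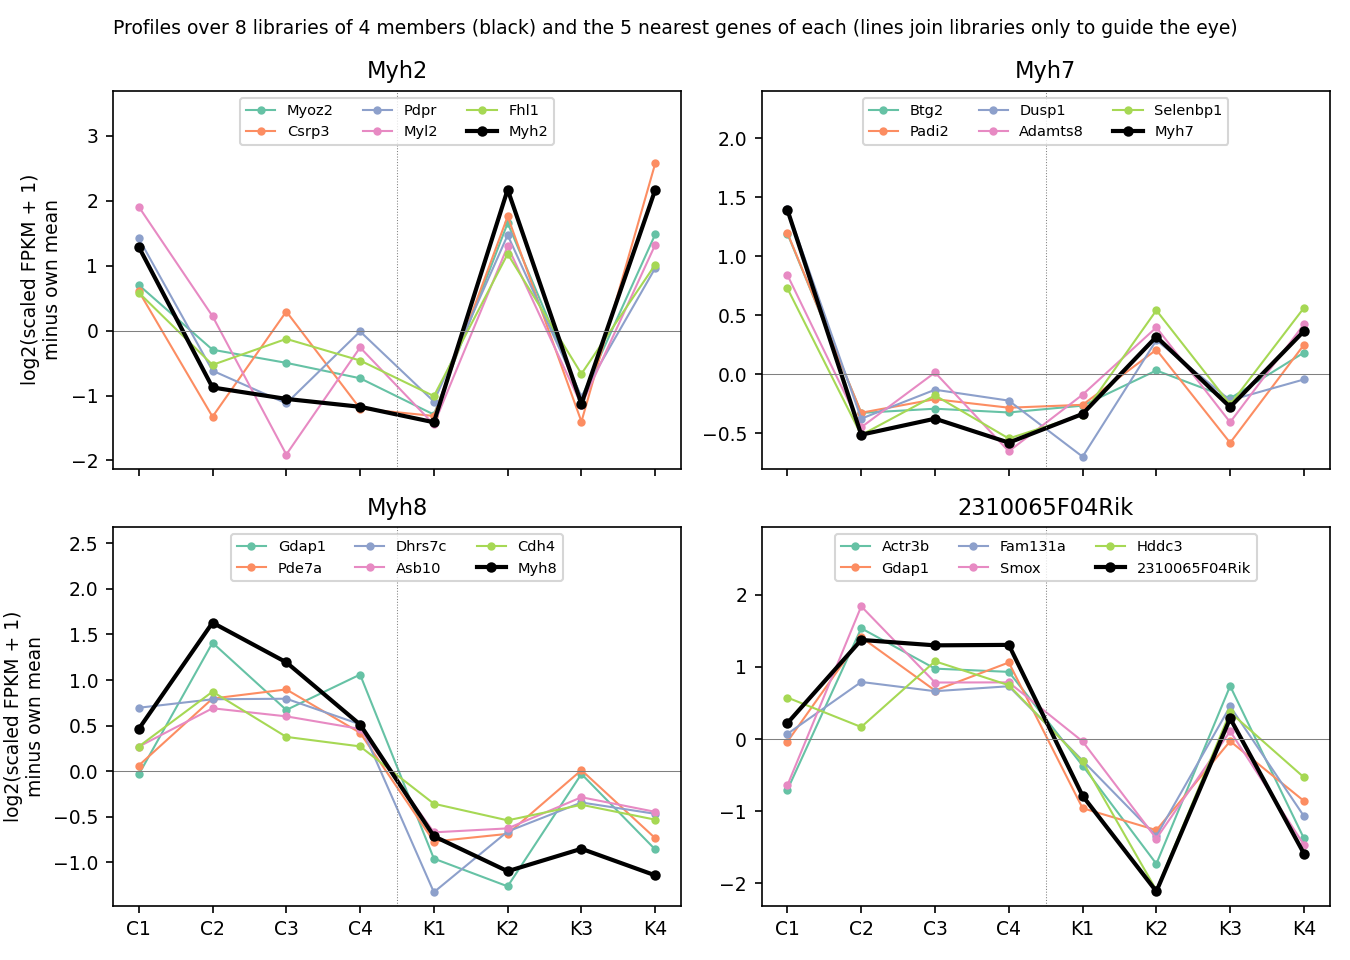
Centred log2(scaled FPKM + 1) of Myh2, Myh7, Myh8 and 2310065F04Rik in black, with the 5 nearest genes of each, for control 1 to control 4 (C1 to C4) and knockout 1 to knockout 4 (K1 to K4). Myh2 and its nearest genes are high in C1, K2 and K4, and Myh8 and its nearest genes are lower in every knockout than in most controls. The genes were picked for nearness to these profiles, so the shared patterns follow from the choice.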

How the data were processed

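Total RNA of snap-frozen tibialis anterior was extracted with Trizol and made into TruSeq RNA v2 libraries, per the labels' protocols. The submitters' processing notes name STAR, Cufflinks and the mm10 build, and no version. The deposited FPKM values, 1 table per library with a Cufflinks status per the file headers, were used, and no read counts are known, so no interval for counting error is given. The kit does not mark strand as far as the labels say, so overlapping genes share reads by estimation. In the listed spans, Myh7 overlaps Mhrt and Mir208b, Myh7b overlaps Mir499 and Trpc4ap, and Myh3 overlaps Mir6923. Mir6923 is listed with the same start and end as Myh3, so a listed span can be wider than its gene. Overlap of listed spans therefore need not mean shared reads, and whether Trpc4ap overlaps Myh7b itself was not tested. The listed span of Myh7b ends at 155692384, against 155634307 in GENCODE M21. There, the antisense genes Myhas and 9430073C21Rik also overlap Myh1 and Myh2, respectively.

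For comparison between libraries each FPKM was scaled by a median-of-ratios factor (0.904 to 1.07, over 10171 genes) and analysed as log2(scaled FPKM + 1), a scale that understates changes of low genes. Genes at 1 scaled FPKM or more in at least 4 libraries and with status OK in all gave 11096 tests in limma (version 3.58.1, run in R 4.3.3; lmFit and eBayes with trend), with Benjamini-Hochberg adjustment and a threshold of 0.05; 23 genes with another status in some library were left out. Members' differences are coefficients of the same linear model without moderation or filter, values with another status being missing. The limma script was tested on simulated data. The members, lists and alternatives were chosen with earlier results of these data known. Named genes are the 9 members; per list, at most 4 called genes in each direction or, with none, the 2 of smallest p; neighbours within 500 kb reaching 1 scaled FPKM; and the 5 nearest profiles of 4 members. Chrng, Chrna1, Runx1 and Ncam1 were named after their values were seen. Alternatives were no filter, a filter on a mean of 5, a pseudocount of 0.1, no scaling, quantile normalization, robust eBayes, missing values for other statuses, the replicate number as a block, the 5 libraries without Xist, a covariate for Xist at 1 FPKM or more, and leaving out libraries. The 4 animals per genotype are separate per the labels. Promoters and microRNAs are from RefSeq (GRCm38.p6), where all 9 members matched, and coding windows from GENCODE M21. Other steps ran in Python 3.11.15 (matplotlib 3.10.9, pandas 2.3.3, numpy 2.4.6).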

Additional observations from a re-analysis of the deposited data

Results flagged for a closer look

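In groups of 4 libraries, 91 were examined for a library far from the other 3, and 12 were found. Chance gives about 1 in 20, but the genes examined include those picked as nearest in profile to Myh2, Myh7, Myh8 and 2310065F04Rik, so the flags are not independent of each other and their number is not read against chance. The value is the gap to the nearest library over the whole range, and those past Dixon's critical value are given. Control 1 stood apart for Myh2 (0.949), at 764 FPKM against 139 to 167, for Myh7 (0.948), at 4.64 against 0.483 to 0.623, and for 2310065F04Rik (0.908), at 49.0 against 96.7 to 111. It also stood apart for Btg2 (0.987), Padi2 (0.956), Dusp1 (0.923) and H19 (0.888, at 819 against 173 to 220 FPKM). Control 1 is the control with Xist. Control 2 was high for Cdh4 (0.853) and control 3 for Mylpf (0.883). Knockout 1 was low for Myh13 (0.847), at 2.37 against 3.31 to 3.78 FPKM, and high for Tnnt1 (0.84), at 57.6 against 16.4 to 24.9 FPKM. Knockout 3 was high for Pde7a (0.917), at 11.1 against 6.39 to 7.15 FPKM.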

How the results depend on the processing

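Over 19 alternatives, the log2 differences of Myh1, Myh3, Myh7b, Myh8 and 2310065F04Rik kept their sign. Those of Myh2, Myh7 and Six4 took the opposite sign in 2, 7 and 1. Of the 19, 4 cannot move these differences by construction: both filters, robust eBayes and missing values. The replicate block can move only that of Myh1, which lacks a value in control 1, and gave -0.19. With a pseudocount of 0.1 Myh3 stood at 0.84 and Myh8 at -2.50, and without knockout 2 and knockout 4 Myh2 stood at -0.82. Leaving out each library in turn gave -0.41 to -0.11 for Myh1, 0.33 to 1.52 for Myh2, 0.37 to 0.53 for Myh3, -0.15 to 0.51 for Myh7, 0.15 to 0.37 for Myh7b, -2.06 to -1.67 for Myh8, -2.54 to -1.74 for 2310065F04Rik and 0.11 to 0.36 for Six4.

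The count of genes called over all genes, 40 as reported, was 8 without a filter, 15 at a mean of at least 5, 223 with presence of Xist, 1 in the 5 libraries without Xist, 12 without knockout 2 and knockout 4, and 2 to 27 when each library was left out. Of the locus neighbours, 0 were called without a filter, in the 5 libraries without Xist and without knockout 2 and knockout 4, and 0 to 1 when each library was left out. In the developmental list, 1 was called with presence of Xist. The causes were not tested. Deviations from the group means in same-numbered animals had correlations of -0.432, -0.194, 0.349 and 0.194. Those of control 1 with knockout 2 and knockout 4, all with Xist, were 0.479 and 0.375. Deviations thus also went with presence of Xist, so these correlations cannot tell whether the numbers pair the animals. With the replicate number as a block, limma called 0 genes and 0 neighbours, with 1314 genes at an unadjusted p under 0.05. Precision is set by 4 animals a group and by depths that are not known.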
